A study of Mus musculus with 6 samples.

Results

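The mitochondrial protein import machinery was examined in mouse oocytes. Its members were the protein coding genes of the deposited table whose symbol starts with Timm or Tomm, together with Pam16, Grpel1, Grpel2, Samm50, Chchd4, Pmpca, Pmpcb, Mtx1 and Mtx2. This rule uses names only and found 35 of the 25631 listed genes, 17773 of which are protein coding. The 6 RNA-seq libraries were made from oocytes of ICR mice aged 14 months, which the labels call aged. For the 3 aminophylline libraries, the donors had 4 mM aminophylline, an inhibitor of phosphodiesterases, in their drinking water for 1 week and then plain water for 3 weeks. For the 3 control libraries, which the labels call untreated, the donors had water alone. All mice had been injected with equine chorionic gonadotropin, which makes antral follicles grow, and the oocytes were punctured out of large antral follicles. The number of mice and oocytes behind a library is not given in the sources used here, so each p-value measures only the spread between libraries, which may be technical.

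Nearly all mitochondrial proteins are encoded in the nucleus, made in the cytosol and imported. The TOM complex carries them across the outer membrane. From there the small TIM chaperones of the intermembrane space guide hydrophobic proteins to the SAM complex of the outer membrane or to the TIM22 complex of the inner membrane, the MIA pathway oxidises small cysteine-rich proteins, and the TIM23 complex with its import motor PAM draws proteins with a presequence into the matrix, where the processing peptidase MPP cuts the presequence off. Oocytes hold a very large stock of mitochondria, which the egg passes on to the embryo.

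Values are FPKM, the fragments on a gene scaled to the length of its transcript and to the total of the library. They can therefore be set side by side between genes, but only as far as the transcript length used for each gene holds. The 6 libraries held 14112341 to 33641283 reads, recovered as whole numbers from the FPKM, and control library 2 was the smallest. The summed FPKM ranged from 510206 to 587775. Correlations of log2 values between libraries of a group were 0.970 to 0.977 among the control libraries and 0.984 to 0.989 among the aminophylline libraries. Of the marker lists, the 10 oocyte genes summed to 18256 to 25128 FPKM in the control libraries and to 19327 to 22614 FPKM in the aminophylline libraries. The 12 granulosa and cumulus genes summed to 16.7 to 24.3 FPKM and 17.7 to 23.3 FPKM, with 9 of them under 1 FPKM in every library. The 11 macrophage genes in the table, of 12 listed, summed to 82.8 to 258 FPKM in the control and 83.4 to 102 FPKM in the aminophylline libraries. Of these, 9 were highest in control library 1. There Lyz2 read 66.4 FPKM, Fcer1g 57.6 FPKM and Tyrobp 20.3 FPKM, while C1qb was at or above 72.3 FPKM in all libraries. Theca and stroma genes summed to 2.90 to 3.83 and 3.89 to 5.24 FPKM, endothelial genes to 5.63 to 8.89 and 5.95 to 7.86 FPKM, and erythrocyte genes to 0.068 to 0.585 and 0.049 to 0.380 FPKM. The table holds no gene that is at 0 in every library. Of the listed markers, 4 of 5 erythrocyte and 3 of 5 endothelial genes were in it, and the values of the missing markers are not known. The part of these other cells in the results was not tested. The count of members called is also given without control library 1, as are the printed differences of members that moved by over 1.5 times without it.

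The members spanned more than 4 orders of level, as the plot of levels by library shows. By the mean over the 6 libraries, 6 members were above 100 FPKM, 16 between 10 and 100 FPKM, 10 between 1 and 10 FPKM and 3 under 1 FPKM. Timm17a, Timm8b, Pam16 and Timm9 together made up 66.7% to 71.4% of the summed FPKM of the machinery in each library. All 35 members together made up 0.582% to 0.690% of a library's summed FPKM. Short transcripts tended to be the abundant ones, since Spearman's rho of mean FPKM and transcript length was -0.56 across the 35 members. The members share the same libraries and are no independent replicates. FPKM divides by transcript length, so level and length are not independent measures either.

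**Figure D1:**
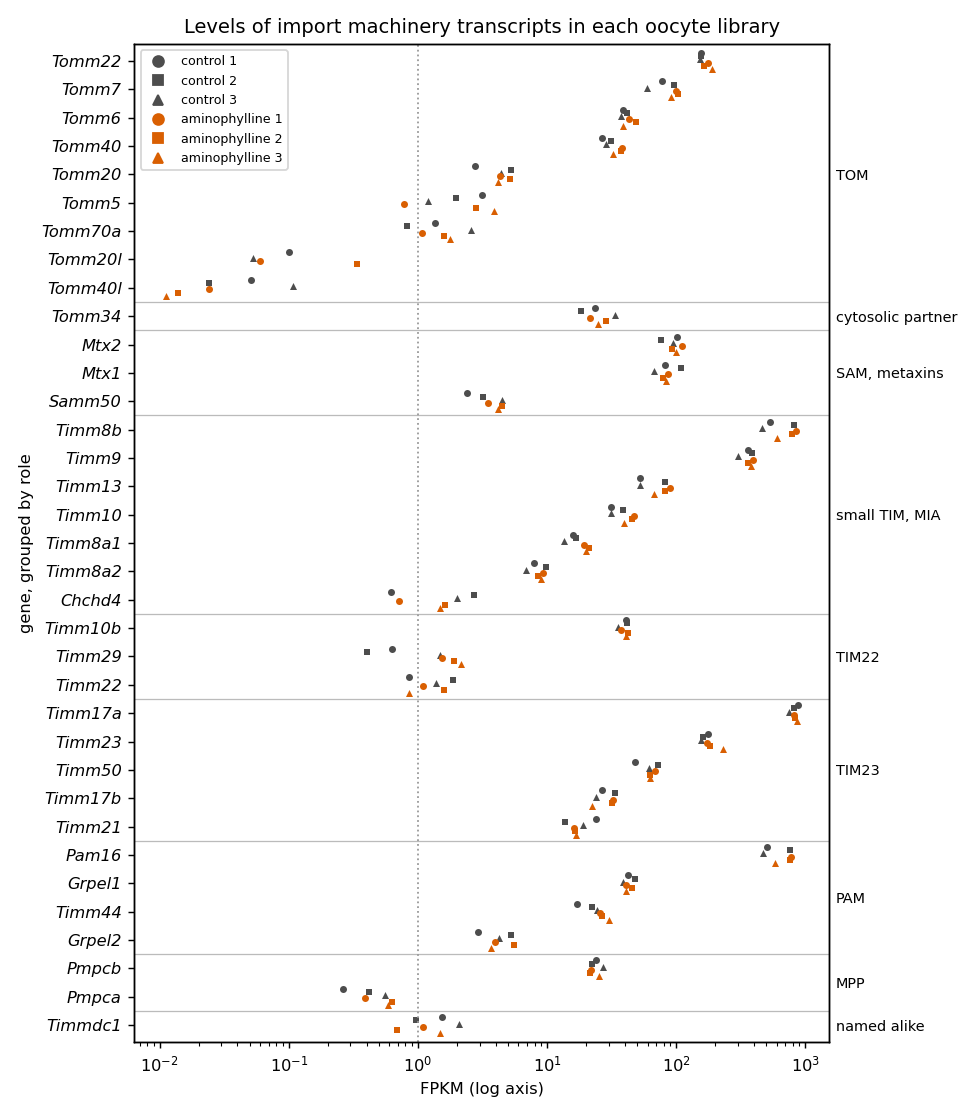
FPKM of the 35 members (log axis) in the 3 control libraries (grey) and the 3 aminophylline libraries (orange), grouped by role; 2 values of Tomm20l are 0 and are not drawn, and the dotted line marks 1 FPKM. Timm17a, Timm8b and Pam16 lie furthest to the right, and Pmpca, Tomm20l and Tomm40l lie left of the dotted line in all libraries.

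The TIM23 complex held the most abundant member. Timm17a, a channel subunit of TIM23, was at 875, 812 and 746 FPKM in control libraries 1, 2 and 3 and at 813, 837 and 856 FPKM in aminophylline libraries 1, 2 and 3. It exceeded 99.5% of protein coding genes by mean level, and its groups overlapped. Its paralog Timm17b averaged 28.4 FPKM over the 6 libraries, so that Timm17a stood 24.0 to 38.4 times above Timm17b within a library. Timm23, the partner subunit, averaged 180 FPKM, Timm50, the presequence receptor of the complex, 62.8 FPKM, and Timm21, which links TIM23 to TOM and the respiratory chain, 17.7 FPKM. The Timm23 level is uncertain, since a second gene model, Gm10273, matches 95.6% of its transcript at 99.9% identity and is no row of the table. The longest annotated Timm17a transcript, of 7280 bases, shares 516 bases with a pseudogene at 96.3% identity. The length behind the Timm17a FPKM was 1060 bases, and how much of it the match covers was not determined. The Timm17a level and its ratio to Timm17b are therefore uncertain as well. The Timm21 transcript shares 179 bases with a pseudogene at 95.5% identity.

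The small TIM chaperones came next. Timm8b, which pairs with Timm13 in a chaperone complex, was at 535, 818 and 463 FPKM in the control libraries and at 850, 783 and 601 FPKM in the aminophylline libraries. Control library 2 thus lay among the aminophylline libraries, and the groups overlapped. Timm8b stood 30.0 to 48.8 times above Timm8a1 and only 8.87 to 10.2 times above Timm13, a ratio that stayed within a narrow band over the 6 libraries. Timm9 averaged 363 FPKM and stood 7.80 to 11.5 times above Timm10, its partner in the hexamer that carries carrier proteins. Timm8a2 averaged 8.58 FPKM, with a Timm8a1 to Timm8a2 ratio of 1.70 to 2.47. Chchd4, the oxidoreductase of the MIA pathway, averaged 1.52 FPKM. Timm8a1 shares 612 bases without a mismatch with the pseudogene Gm9797, so its level is uncertain too.

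The import motor was dominated by Pam16, the J-like subunit that holds back the motor's J-protein. Pam16 was at 501, 764 and 469 FPKM in the control libraries and at 775, 766 and 584 FPKM in the aminophylline libraries. These values overlapped, and control library 2 was again among the high ones. The order of the leading members was not fixed, because the ranges of Timm17a, Timm8b and Pam16 met. A Glis2 transcript carries 439 bases identical to the annotated Pam16 transcript of 1634 bases, which limits how far the Pam16 level can be assigned. Grpel1, the nucleotide exchange factor of the matrix Hsp70, averaged 42.7 FPKM and stood 8.14 to 14.5 times above its paralog Grpel2. The Grpel2 transcript shares 677 bases with the pseudogene Gm5587 at 97.8% identity. Timm44, which tethers the motor to TIM23, averaged 24.3 FPKM.

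In the TOM complex the receptor Tomm22 was highest, at 155, 156 and 153 FPKM in the control libraries and 175, 164 and 190 FPKM in the aminophylline libraries. Its aminophylline values all lay above its control values. The presequence receptor Tomm20 averaged only 4.33 FPKM, so that Tomm22 stood 29.9 to 56.1 times above it, and Tomm70a, the receptor for carrier proteins, averaged 1.52 FPKM. Tomm40, the channel itself, averaged 32.5 FPKM. Of the small subunits, Tomm7 averaged 88.0 FPKM, Tomm6 41.3 FPKM and Tomm5 2.29 FPKM. The Tomm6 level may include reads of Gm21981, whose exons cover 656 of its 803 exon bases on the same strand. Tomm20 has several pseudogenes that match up to 8.9% of its transcript, and Tomm7 matches 2 pseudogenes over up to 14.9%.

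The remaining roles were lower. Mtx2, a metaxin of the outer membrane, was at 101, 76.3 and 94.2 FPKM in the control and 112, 92.9 and 99.0 FPKM in the aminophylline libraries, which overlapped. Mtx1 lay close to it, with Mtx2 at 0.696 to 1.39 times Mtx1, while Samm50, the barrel of the SAM complex that both metaxins join, averaged 3.70 FPKM. Timm10b, the small TIM bound to TIM22, was at 41.1, 41.8 and 35.5 FPKM in the control and 37.4, 42.0 and 40.9 FPKM in the aminophylline libraries. The TIM22 channel Timm22 itself averaged 1.27 FPKM, and its partner Timm29 1.35 FPKM. Timm10b shares 368 exon bases with Gm45799 on the same strand.

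Pmpcb, the catalytic subunit of MPP, was at 24.1, 22.4 and 27.2 FPKM in the control and 21.9, 21.5 and 25.4 FPKM in the aminophylline libraries. Pmpca, its substrate-binding partner, held 14 to 42 reads, or 0.265 to 0.633 FPKM, so that Pmpcb stood 33.9 to 91.0 times above the subunit with which it works. Pmpca shares 874 exon bases with Inpp5e on the opposite strand, and whether strand was used in counting is not given in the sources used here. Tomm34, a cytosolic cochaperone, was at 23.6, 18.2 and 33.7 FPKM in the control and 21.6, 28.8 and 24.7 FPKM in the aminophylline libraries. Tomm40l, a paralog of Tomm40, held 5, 1 and 10 reads in the control and 2, 1 and 1 reads in the aminophylline libraries. Tomm20l held 2, 0 and 1 reads in the control and 1, 5 and 0 reads in the aminophylline libraries. A limit of 3 reads was taken as the most that a count of 0 allows, so both paralogs lay at or near the limit of counting in most libraries.

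The question of the design was whether transcript levels differed after the drug. No member passed the test across genes. Of the 35 members, 32 reached at least 1 FPKM in at least 3 libraries and were tested by limma on log2(FPKM + 1), which understates the change of low genes, and Pmpca, Tomm20l and Tomm40l were not. At an adjusted p under 0.05, 0 of the 32 members and 0.0% of all 10340 genes tested were called. At an unadjusted p under 0.05, 1 member was higher with aminophylline, against 4.41% of all genes, and 0 members were lower, against 2.84%. The member counted was Timm29. It met the filter through the aminophylline libraries, since control library 3 was the only control library in which it reached 1 FPKM. Its place among the tested genes is therefore not independent of its difference between the groups. In bulk libraries, fewer cells of a type and less RNA per cell cannot be told apart.

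The replicate numbers of the labels, used as a block, moved these counts. With the block 3 of the 32 members were higher at an unadjusted p under 0.05, namely Timm10, Timm29 and Tomm7, against 9.88% of all genes, and 0 were lower, against 4.3%. At an adjusted p under 0.05 the block called 0 members and 0.455% of all genes. The count without the block also turned on the control libraries. It was 0 without control library 1, against 214 of all 10340 genes. It was 2 without control library 3, namely Timm29 and Timm44, against 1219 genes. It was 6 without control library 2, namely Pam16, Timm10, Timm13, Timm8a1, Timm8b and Tomm7, against 865 genes.

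Timm29, which assembles with Timm22 in the carrier insertase of the inner membrane, lies on chr9:21592722-21595970 of GRCm38.p6. It held 67, 18 and 149 reads in the control libraries, or 0.628, 0.402 and 1.48 FPKM. In the aminophylline libraries it held 138, 150 and 209 reads, or 1.54, 1.91 and 2.16 FPKM. All aminophylline libraries lay above all control libraries, though aminophylline library 1 was only just above control library 3. The difference was 0.68 ± 0.24 (SE) in log2(FPKM + 1), with a 95% interval of 0.16 to 1.20 and an adjusted p of 0.68 by limma, or of 0.11 with the replicate block. It was 0.62 without control library 1 and 0.51 without control library 2, and in neither fit was the unadjusted p under 0.05, while it was 0.92 without control library 3. On scales that compress low values less it was larger, at 1.23 in log2(FPKM + 0.1) and at 1.26 by voom on the recovered reads. Timm29 shares 107 of its 3170 exon bases with Yipf2 on the opposite strand.

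Beyond Timm29, 5 further members had every aminophylline library above every control library. With Timm29 these 6 were 18.8% of the members tested, against 7.51% of all genes. Of the tested members 0 had every aminophylline library below every control library, against 4.96%. The untested Tomm40l did, on 1 to 10 reads a library. The 5 further members were Tomm22, Tomm40, Timm10, Timm8a1 and Timm44, chosen for naming after their values were seen. Since all members share the same 6 libraries, they are not 6 separate observations.

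Timm10, on chr2:84827021-84830213, was at 31.2, 39.0 and 31.2 FPKM in the control and 47.1, 45.8 and 39.6 FPKM in the aminophylline libraries. The groups were separated by little, since control library 2 came close to aminophylline library 3. Its difference was 0.38 ± 0.17 (SE) in log2(FPKM + 1), with a 95% interval of -0.0019 to 0.76 and a limma adjusted p of 0.69, or of 0.33 with the block. Timm8a1 was at 16.0, 16.8 and 13.4 FPKM in the control and at 19.2, 21.0 and 20.0 FPKM in the aminophylline libraries, a difference of 0.37 ± 0.18 (SE). Timm44 was at 17.1, 22.2 and 24.2 FPKM and at 25.5, 26.5 and 30.0 FPKM, also 0.37 ± 0.19 (SE). For Timm44 control library 1 lay well under the other control libraries, and without it the difference was 0.23. Tomm40 was at 26.8, 31.5 and 28.8 FPKM and at 37.9, 37.3 and 32.6 FPKM, a difference of 0.30 ± 0.17 (SE), and Tomm22 differed by 0.19 ± 0.14 (SE). The limma adjusted p of these 5 members ranged from 0.69 to 0.76.

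Timm13 had the third largest difference, 0.37 ± 0.21 (SE) in log2(FPKM + 1), but its groups overlapped. It was at 52.5, 81.7 and 52.2 FPKM in the control and 88.8, 81.8 and 67.0 FPKM in the aminophylline libraries. Tomm7 was at 77.6, 95.5 and 59.5 FPKM and at 99.5, 104 and 91.8 FPKM, a difference of 0.36 ± 0.19 (SE) with a limma adjusted p of 0.69, or of 0.33 with the block. In both, control library 2 was the control library that reached the aminophylline range. Timm8b and Pam16 differed by 0.33 ± 0.22 (SE) and 0.32 ± 0.21 (SE). These differences turned on single control libraries. Without control library 2, Timm13, Timm8b and Pam16 stood at 0.58, 0.57 and 0.53, and without control library 3, Tomm7, Timm8b and Pam16 stood at 0.19, 0.16 and 0.18.

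The lowest differences were those of Timmdc1, Chchd4 and Timm21. Timmdc1, an assembly factor of respiratory complex I that matches the rule by its name, was at 1.54, 0.962 and 2.07 FPKM in the control and at 1.08, 0.689 and 1.47 FPKM in the aminophylline libraries. Its difference was -0.27 ± 0.23 (SE) in log2(FPKM + 1). Chchd4 was at 0.621, 2.73 and 1.99 FPKM and at 0.711, 1.62 and 1.47 FPKM, on 25 to 79 reads, a difference of -0.24 ± 0.30 (SE). Timm21 was at 24.0, 13.8 and 18.9 FPKM and at 16.1, 16.6 and 16.8 FPKM, a difference of -0.15 ± 0.22 (SE). The groups of all 3 members overlapped. Chchd4 stood at -0.58 without control library 1. Its sign turned without control library 2, at 0.02, and the sign of Timm21 turned without control library 1, at 0.03.

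**Figure D2:**
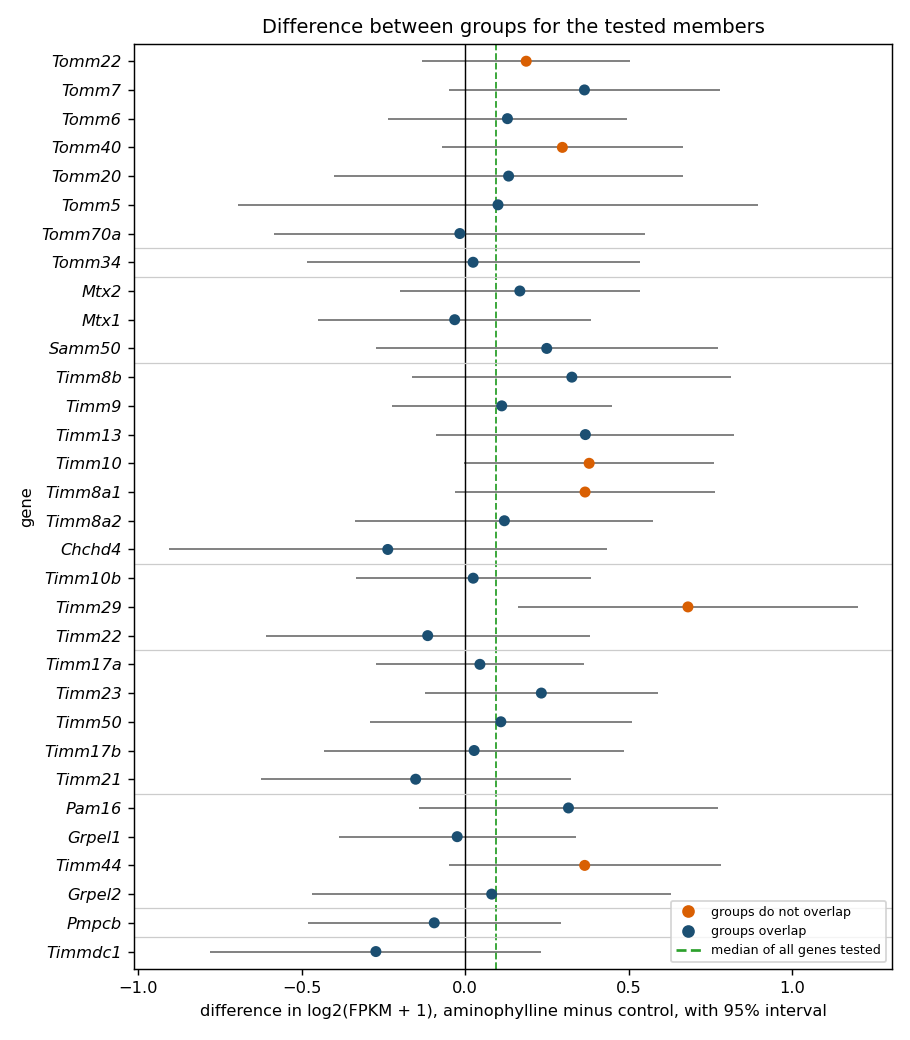
Difference in log2(FPKM + 1) between aminophylline and control for the 32 tested members, with 95% intervals from limma (n = 3 libraries a group); orange points are members whose groups do not overlap, and the dashed line is the median of all genes tested, 0.10. The interval of Timm29, 0.16 to 1.20, is the only one that lies wholly above 0.

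Across the 32 tested members the median difference was 0.12 in log2(FPKM + 1), from -0.27 to 0.68, and 24 members had a higher and 8 a lower mean with aminophylline. Over all 10340 genes tested the median was 0.10, with 64.8% of genes higher, so the members lay close to the general shift of the table. The intervals bound what was measured. In 31 of the 32 members the 95% interval lay within -1 and 1 on this scale, Timm29 being the exception, but within -0.5 and 0.5 in only 8.

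By role, the sum over the 9 TOM members was 306, 333 and 286 FPKM in the control and 362, 364 and 362 FPKM in the aminophylline libraries. This was the only one of the 7 multi-member role sums whose groups did not overlap, and the aminophylline libraries differed by less than 3 FPKM. The sums of the small TIM and MIA members were 1076 ± 250 FPKM in the control and 1274 ± 148 FPKM in the aminophylline group (mean ± SD, n = 3 each). Those of the motor were 646 ± 168 and 782 ± 108 FPKM, and those of TIM23 were 1084 ± 71.7 and 1141 ± 43.6 FPKM. SAM with the metaxins summed to 180 ± 12.1 and 188 ± 12.7 FPKM, TIM22 to 41.7 ± 3.01 and 43.1 ± 2.78 FPKM and MPP to 25.0 ± 2.53 and 23.5 ± 2.20 FPKM. A sum over members is carried by the most abundant of them, such as Tomm22 and Tomm7 in TOM. With a correction for transcript length the difference of Tomm22 was 0.07 instead of 0.19, and that of Tomm7 was 0.26 instead of 0.36. The sums themselves carry no such correction. Among single genes tested, 7.51% had every aminophylline library above every control library. The role sums were not tested.

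**Figure D3:**
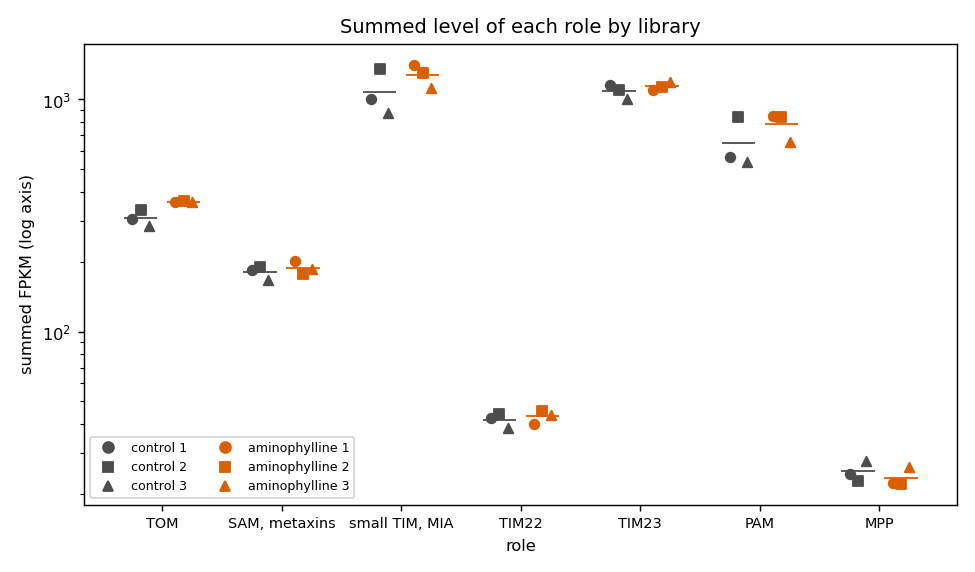
Summed FPKM of the members of each role (log axis) in each library, with control in grey and aminophylline in orange; horizontal bars are group means (n = 3). The TOM sum separates the groups, at 286 to 333 FPKM against 362 to 364 FPKM, whereas the groups overlap in every other role drawn.

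The spread between libraries was not the same for all members. Control library 3 held the lowest value of 14 of the 32 members (43.8%), against 17.0% of all genes tested. Control library 2 held the highest value of 8 of the 32 members, against 11.9% of all genes. Transcript length was set beside this spread. A transcript under 1455.5 bases was found for 16 of the 32 members but for 2505 of the 10340 genes tested. The 16 members with a transcript under 1455.5 bases had a median deviation from the gene's own mean of -0.27 in control library 3, -0.11 in control library 1 and 0.06 in control library 2, on the log2(FPKM + 1) scale. In aminophylline libraries 1, 2 and 3 their median deviations were 0.12, 0.17 and 0.05. The short genes of the whole table stood at -0.19, -0.10 and 0.09 in control libraries 3, 1 and 2. In aminophylline libraries 1, 2 and 3 these genes stood at 0.12, 0.09 and 0.005. The 16 longer members had a median of 0.06 in control library 3, against 0.19 for the longer genes of the whole table. Of the 14 members lowest there, 11 were short and 3 were long, namely Grpel1, Timm10b and Timm8a2.

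Spearman's rho of the deviation with transcript length was 0.63 across the 32 members in control library 3 and -0.38 in aminophylline library 1. Across all genes tested it was 0.44 and -0.42 in these libraries. In control library 2 it was -0.19 across the members and -0.40 across all genes, and in aminophylline library 3 it was -0.07 and 0.31, so the members and the whole table were not alike in every library. In control library 1 and aminophylline library 2 all values lay between -0.14 and -0.02. All points of a library share its depth and preparation. The short members had a median difference between the groups of 0.18, against 0.14 for the 2505 short genes of the whole table. For the longer members it was 0.03, against 0.08 for the 7835 longer genes. With a correction for transcript length the median difference over the members was 0.02 and that of all genes 0.01. With the same correction Timm29 stood at 0.63, Timm44 at 0.32, Timm8a1 and Timm13 at 0.27, Tomm7 at 0.26 and Tomm40 at 0.25. Several short members moved by over 1.5 times, as Timm10 stood at 0.22, Pam16 and Timm8b at 0.14, Tomm22 at 0.07 and Timm23 at 0.06. With the correction and the block together, Timm29 was the only member with an unadjusted p under 0.05, and Timm10 and Tomm7 no longer were.

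**Figure D4:**
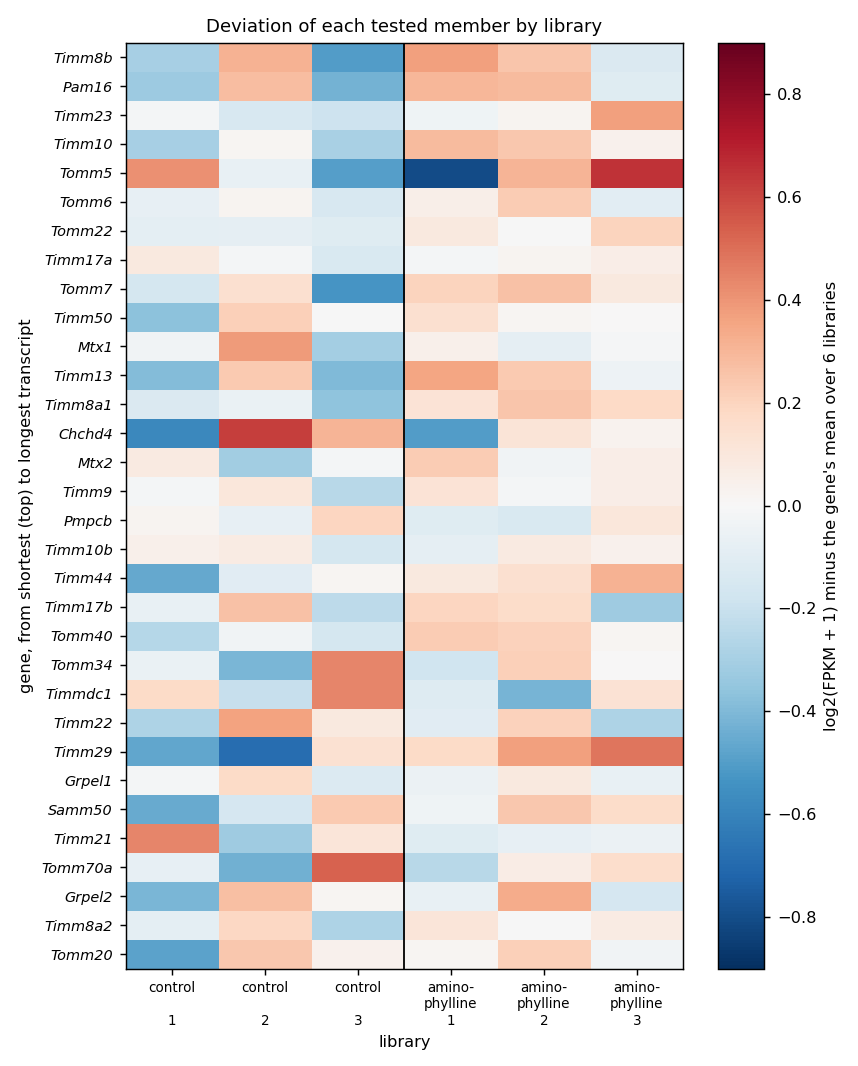
Deviation of log2(FPKM + 1) from the gene's mean over the 6 libraries for the 32 tested members, ordered from the shortest to the longest transcript; blue is below and red above the mean, and the black line separates control from aminophylline. Control library 3 is blue for most short members and red for several long ones, while Timm8b, Pam16 and Timm13 share a high control library 2 and high aminophylline libraries 1 and 2.

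Other genes of mitochondrial protein handling were read from lists of matrix chaperones and import partners, insertase and presequence peptidases, the cristae-organising MICOS complex, and proteases of the inner membrane and matrix. Of 45 listed genes 44 were in the table and 42 were tested. At an unadjusted p under 0.05, 4 (9.52%) were higher with aminophylline, against 4.41% of all genes, and 1 (2.38%) was lower, against 2.84%, and none passed at an adjusted p under 0.05 by limma. The counts moved with the libraries and the fit. Without control library 1 only Dnajc11 was higher and none was lower, and leaving out control library 2 gave 9 higher genes and 1 lower. Over all 10340 genes, 214 were higher and 155 lower without control library 1, and 865 and 752 without control library 2. With the replicate block 7 were higher, against 9.88% of all genes, and 1 was lower, against 4.3%. Gfer, Lonp1 and Afg3l2 were the additional higher ones. With the correction for transcript length 3 were higher, namely Dnajc11, Lonp1 and Spg7, against 388 of all 10340 genes. Mipep was lower, against 592 genes. Hspe1 and Micos10 were among the higher ones neither with this correction nor after median centring. With the correction and the block together 5 were higher, Micos10 among them, against 681 genes. The median difference of the 42 genes was 0.08. Dnajc11, an outer membrane J-protein tied to MICOS, was at 26.7, 33.8 and 42.0 FPKM in the control and 50.2, 50.5 and 61.0 FPKM in the aminophylline libraries. Its difference was 0.66 ± 0.20 (SE), with a limma adjusted p of 0.66, or of 0.094 with the block, and its groups did not overlap. Hspe1, the matrix chaperonin cofactor, averaged 274 ± 43.3 FPKM in the control and 359 ± 25.3 FPKM in the aminophylline group (SD, n = 3 each). Micos10 averaged 61.0 ± 12.0 and 82.3 ± 8.66 FPKM, and Spg7, a subunit of an inner membrane protease, 0.695 ± 0.328 and 1.30 ± 0.164 FPKM. Spg7 met the filter through the aminophylline libraries, since among the control libraries only library 3 reached 1 FPKM. With no filter 3 related genes were higher, namely Dnajc11, Hspe1 and Micos10, against 917 of all 25631 genes, and Spg7 was not among them. Mipep, the intermediate peptidase that trims some presequences after MPP, was the lower one. It was at 116, 94.4 and 104 FPKM in the control and at 84.9, 83.5 and 73.4 FPKM in the aminophylline libraries, which did not overlap, with a difference of -0.37 ± 0.16 (SE) and an adjusted p of 0.68.

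Many promoters of the members held a short sequence that the naming rule did not use. RefSeq windows of 300 bases, from 250 before to 50 after a gene's start on GRCm38.p6, were found for 31 of the 35 members, in 33 windows. The core CCGGAAG, read by ETS factors such as GABP and searched on both strands, was found in 16 of these 33 windows (48.5%), of 15 members. It was found in 17.4% of the 10316 windows of the other tested genes and in 8.86% of all 32851 windows. The members' windows were close to those of the other tested genes in composition, with a median GC content of 59.7% against 58.7% and a median of 20 against 18 CpG dinucleotides, while all windows together had 52.7% GC and 7 CpG. Of the 27 cores counted, 21 began before the start and 22 within 60 bases of it. Where a forward and a reverse core overlap, both were counted.

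The sites below are shown because they are the stretch that recurs in these promoters, and the site of Timm29 because of its difference between the groups. Each is read 5′ to 3′ on the gene's strand, with 10 bases on either side of the core, and the capitals mark the core or its reverse complement.
Tomm22 (chr15:79670814-79670840, plus strand): cggctcgcttCCGGAAGacgctctgtc
Tomm70a (chr16:57121696-57121722, plus strand): atgccccgggCTTCCGGtgacctctgg
Mtx1 (chr3:89213901-89213927, minus strand): cgagaaggtgCTTCCGGgtcagagagc
Mtx2 (chr2:74825777-74825803, plus strand): ggcggagcagCCGGAAGtgccggcgcg
Timm8b (chr9:50603879-50603905, plus strand): gaagcgtgaaCCGGAAGgcaggagacg
Timm10 (chr2:84826995-84827021, plus strand): tcggcgttttCTTCCGGatcaaagaag
Timm23 (chr14:32201922-32201948, minus strand): gcgcttcccaCTTCCGGgccgcacaca
Pmpcb (chr5:21737134-21737160, plus strand): gagtcatgacCCGGAAGtacatctcca
Timm29 (chr9:21592500-21592526, plus strand): gctctgaccaCTTCCGGgctccactca

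The core began 44 bases before the start in Tomm22, 8 in Tomm70a, 10 in Mtx1, 25 in Mtx2, 12 in Timm8b, 16 in Timm10, 47 in Timm23 and 16 in Pmpcb. In Timm29 it began 212 bases before the start, farther than in the others shown. The sites shown came from receptor, metaxin, small TIM, TIM22, TIM23 and MPP genes, but not evenly. Of the TIM23 members only Timm23 was found with the core, and Timm17a and Timm50 had windows without it. Members with and without the core overlapped in level. The 15 with it ranged from 0.475 to 675 FPKM, with a median of 39.0 FPKM. The 16 without it ranged from 0.092 to 823 FPKM, with a median of 26.3 FPKM. The median difference was 0.07 for the 14 tested members with the core, 9 of them higher with aminophylline. It was 0.13 for the 15 tested members without it, 13 of them higher. A relation of the core to level or difference was not tested. A match to these letters is a description and shows no binding.

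**Figure D5:**
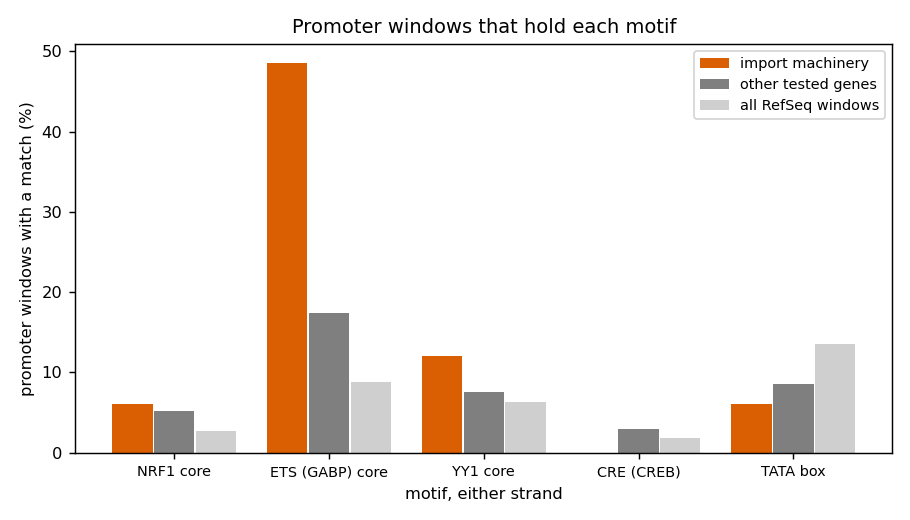
Share of RefSeq promoter windows that hold each motif on either strand, for the 33 windows of the members (orange), the 10316 windows of the other tested genes (dark grey) and all 32851 windows (light grey). The ETS core stands at 48.5% of the members' windows against 17.4% and 8.86%, whereas the other motifs are each found in at most 12.1% of the members' windows.

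The other motifs were found in few members. The core AAGATGG of YY1 was in 4 of the 33 windows (12.1%), against 7.59% of the windows of other tested genes and 6.34% of all. The core GCATGCGC of NRF1, a factor known for mitochondrial genes, was in 2 windows (6.06%), those of Grpel1 and Timm13, against 5.22% and 2.71%. The letters TATAAA of a TATA box were in 2 windows (6.06%), against 8.59% and 13.6%. The palindrome TGACGTCA, bound by CREB, a factor that acts downstream of cyclic AMP, was in 0 of the 33 windows, against 2.97% and 1.79%, which says only that these letters are not in these windows.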

How the data were processed

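The authors deposited FPKM values per gene for 6 oocyte libraries. The aligner, counter and strand setting are not given in the sources used here, and the labels name the builds GRCm38 and mm10. Reads were recovered from the FPKM ratios between libraries, and 100.0% of 120146 values came out whole within a relative tolerance of 1e-06. Totals were 14112341 to 33641283 reads. Counting limits cover counting error only.

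Groups and replicate numbers came from the labels. The main test was limma 3.58.1 in R 4.3.3 with a variance trend on log2(FPKM + 1), two-sided, for the 10340 genes with FPKM of at least 1 in at least 3 libraries, with Benjamini-Hochberg adjustment over all of them. An exact permutation test of 3 against 3 libraries cannot give a p under 0.1 and was not used. Deviations of same-numbered libraries correlated at 0.14, 0.14 and 0.55, all over 0.1, but control library 2 and aminophylline library 1 also did, at 0.42; the numbers come from the sample titles, and no source says what they share.

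Levels were given for members with an unadjusted p under 0.05, for the most abundant member of each role and for the 3 largest and 3 smallest differences. Timm8a1, Timm44, Tomm40 and Tomm7 were added after their values were seen, for groups that did not overlap or for the result with the block. The members and gene lists were chosen with earlier results of these data known. Near copies were searched with BLAST at 95% identity against GENCODE vM21 transcripts. The code was tested on simulated reads: of genes changed 2-fold, 70 of 98 passed at an adjusted p under 0.05. These reads had the same dispersion for every gene and no effect of transcript length or preparation. The share that passed is therefore no measure of power in the real libraries. The alternatives tried were another pseudocount, 2 other filters, 3 other scalings, an unmoderated model, the replicate block, voom on the recovered reads, a transcript length correction with and without the block, library weights and leaving out each library.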

Additional observations from a re-analysis of the deposited data

How the results depend on the processing

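Of the 32 members tested, 1 was higher at an unadjusted p under 0.05, against 456 of all 10340 genes. With no filter this count was 4 of 35 members, against 917 of 25631 genes. With an unmoderated linear model it was 4, against 407 genes, and with the replicate block 3, against 1022 genes. Library weights gave 9, against 1398 genes. When each library was left out, the count ranged from 0 to 6 members and from 203 to 1219 genes. No member was lower and none passed at an adjusted p under 0.05 under any of the 18 alternatives, with voom on the recovered reads among them. Of the 42 related genes, between 1 and 9 were higher and between 0 and 1 lower when each library was left out. In 3 other settings 2 related genes, Mipep and Oma1, were lower. These were no filter, against 487 of 25631 genes, the unmoderated model, against 270, and the length correction with the block, against 839. Median centring gave 2 higher, against 281 of all 10340 genes, and the unmoderated model 2, against 407. Library weights gave 10 higher, against 1398. The median difference over the members stayed above 0, at 0.018 with the length correction to 0.19 without control library 2. With the replicate block it was 0.12 by construction, since a block cannot move the fitted difference when each number occurs once in each group. Timm29 kept its direction in all 17 alternatives that tested it and an unadjusted p under 0.05 in 14 of them. The log2 change of Chchd4 turned to 0.11 with library weights and ranged from -0.58 to 0.017 when each library was left out, and that of Timm21 ranged from -0.35 to 0.0291. The cause was not tested. Over all genes, 60.8% of those with an unadjusted p under 0.05 were higher with aminophylline, but 49.1% after rescaling to a common sum, 35.9% after median centring, 39.7% after quantile normalization and 39.6% with the length correction, so the direction of the table as a whole rests on the scaling. Timm29, Timmdc1, Tomm5, Tomm70a, Timm22, Chchd4, Pmpca, Tomm20l and Tomm40l each held under 100 reads in at least 1 library, so counting error weighs on their values.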
